A study of Rattus norvegicus with 2 samples.

Results

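The genes described here are 10 members of the myostatin and activin system of skeletal muscle. They are the secreted ligands Mstn, Inhba and Bmp4, the secreted antagonists Fst, Fstl1, Fstl3 and Grem1, and the receptors Acvr2a, Acvr2b and Acvr1b. They were chosen by name from the gene names of the files. Each member had 1 rat row and 1 mouse row in the chimera table, 20 rows of 49280, and 1 rat row in the SD rat table, 10 rows of 23373.

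Cells came from the skeletal muscle of 1 rat-mouse chimera and 1 Sprague Dawley (SD) rat. The chimera was made by injecting mouse induced pluripotent stem cells (iPSCs) into SD rat embryos. Per the methods of the study, these iPSCs came from Dmd mdx mice that carry a Pax7-nGFP reporter, and their Dmd gene had been edited to restore its reading frame, so the mouse cells of the chimera carry the reporter and the edited allele and the rat cells of both animals are SD rat cells without them. Muscle of the whole body was digested with collagenase and live cells were sorted with a viability dye, a step that intact myofibres, the long multinucleate cells of muscle, do not pass. The 10x Genomics droplet kit used reads the 3′ end of transcripts, marks them with the barcode of their cell, and counts each captured molecule once by a unique molecular identifier (UMI).

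Myostatin, the product of Mstn, is a ligand of the TGF-beta superfamily made mainly by skeletal muscle, and it is best known as a brake on muscle growth. Myostatin and the activins, which are dimers of inhibin beta chains such as the one encoded by Inhba, bind a type II receptor (ACVR2A or ACVR2B) that then recruits and phosphorylates a type I receptor such as ACVR1B, and the signal passes to SMAD2 and SMAD3. BMP4 uses other type I receptors and passes its signal to SMAD1, SMAD5 and SMAD9. Follistatin (Fst) and FSTL3 trap activins and myostatin outside the cell, and gremlin 1 (Grem1) traps bone morphogenetic proteins.

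Each group was 1 library from 1 animal, so no difference between the chimera and the SD rat has a replicate check and no test was made. A level is given as UMIs of a gene summed over the cells of a class, scaled to 1000000 UMIs of the same species in those cells (CPM), with an exact 95% Poisson interval. These intervals, and the exact binomial intervals of shares, cover counting error only. A chimera cell with at least 80% of UMIs on mouse rows counts as a mouse cell here, and one with at most 20% as a rat cell. After filtering, 8758 SD rat cells, 8230 chimera rat cells and 1847 chimera mouse cells were analysed, with median UMIs of their own species of 6256, 7623 and 6603 per cell. Only 43 barcodes were common to both libraries. Cells were clustered within each population and classes were named from marker genes, with the suffix "-like". FAP-like cells (fibro-adipogenic progenitors, the mesenchymal stromal cells between myofibres) numbered 3193 in the SD rat, 2606 among chimera rat cells and 124 among chimera mouse cells, tenocyte or fibroblast-like cells 533, 585 and 40, EC-like (endothelial) cells 1561, 720 and 979, MP-like (myogenic progenitor) cells 354, 420 and 47, and myocyte-like cells 1522, 833 and 29. Of the 11 FAP markers measured, 9 were highest in the FAP-like class of each rat population and 11 in that of the mouse cells, and all 10 tenocyte markers were highest in the tenocyte or fibroblast-like class in each of the 3 populations. Of the 10 MP markers, 6, 7 and 8 were highest in MP-like cells.

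Of the ligands, Mstn (ENSRNOG00000021294), the gene of myostatin, had few UMIs and most of them were outside muscle cells. The SD rat held 163 Mstn UMIs in 66 cells and the chimera rat cells 128 in 63 cells, of which 44 cells in each held a single UMI. The highest level was in tenocyte or fibroblast-like cells, at 19.0 CPM (95% interval 15.1 to 23.6, 82 UMIs) in the SD rat and 9.26 CPM (6.82 to 12.3, 48 UMIs) in the chimera rat cells, and the intervals did not overlap. These cells held 50.3% of all Mstn UMIs of the SD rat and 37.5% of those of the chimera rat cells. Myocyte-like cells followed with 3.19 CPM (1.98 to 4.88, 21 UMIs) and 5.92 CPM (3.93 to 8.55, 28 UMIs), whose intervals overlapped. MP-like cells had 3 and 13 UMIs. This class holds the satellite cells (muscle stem cells) but not these alone. A cluster with Myog, a gene of differentiating myoblasts, among its leading genes made up 59 of its 354 SD rat cells and 89 of its 420 chimera rat cells. The single mouse MP-like cluster of 47 cells also had Myog among its leading genes. Chimera mouse cells held 4 Mstn UMIs in all, 2 of them in tenocyte or fibroblast-like cells and 1 in a myocyte-like cell. The chimera barcodes between the 2 species limits, which entered no class, held 19 Mstn UMIs on the mouse row and 10 on the rat row. The Mstn values by class leave these out.

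Within the tenocyte or fibroblast-like class, Mstn was concentrated in 1 cluster of each library. In the cluster with Emb among its leading genes, which also held Tnmd, Thbs4 and Chodl, the level was 59.8 CPM (47.1 to 74.8, 76 UMIs, 178 cells) in the SD rat and 23.9 CPM (17.2 to 32.3, 42 UMIs, 238 cells) in the chimera rat cells. In the cluster with Kera, Fmod and Tnmd leading but without Emb, it was 1.97 and 1.75 CPM, from 6 UMIs in each library. A few cells carried much of the signal. The 9 SD rat cells with 4 or more Mstn UMIs, a limit chosen after the values were seen, held 4 to 21 each and 55.2% of all Mstn UMIs, and the 5 such chimera rat cells held 5 to 22 each and 43.0%. Of the 9 SD rat cells, 6 were tenocyte or fibroblast-like, 2 FAP-like and 1 Schwann or glial-like, and 8 had a UMI of Thbs4 and 7 of Tnmd, both made by tendon cells. Of the 5 chimera rat cells, 4 were tenocyte or fibroblast-like and 1 was FAP-like, and all 5 had Thbs4 and Tnmd. None of the 14 had a UMI of Pax7 or Myog, which mark satellite cells and differentiating myoblasts, and Tcap, a myofibre gene, was found in 3 of the SD rat cells and in none of the chimera rat cells. The share of tenocyte or fibroblast-like cells with a Mstn UMI was 4.13% in the SD rat and 2.56% in the chimera rat cells. After each cell was thinned to 1000 UMIs it was 0.986% (5 cells) and 1.03% (6 cells), so at this depth a difference in the share of cells was not detectable.

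Inhba (ENSRNOG00000014320), which encodes the beta A chain of activin A, was a stromal gene in these libraries. Its highest level in the SD rat was in tenocyte or fibroblast-like cells, at 57.4 CPM (50.5 to 65.0, 248 UMIs), followed by FAP-like cells at 29.0 CPM (27.2 to 30.8), where 1046 of its 1436 UMIs lay. The chimera rat cells had 38.6 CPM (33.4 to 44.3, 200 UMIs) and 11.8 CPM (10.55 to 13.1, 338 UMIs) in the same classes. Both intervals lay below those of the SD rat. The ratio of chimera rat over SD rat, computed on the log2 scale with 1 CPM added to each level and with an interval from the exact binomial distribution of the summed counts without that addition, was -1.23 (-1.48 to -1.12) in FAP-like cells and -0.56 (-0.85 to -0.30) in tenocyte or fibroblast-like cells. The tenocyte value leaned on single cells. Without the cell with the most Inhba UMIs in each library it was -0.22, from 339 summed UMIs in place of 448. The highest SD rat cell of any class held 81 Inhba UMIs. Chimera mouse cells had 102 CPM (87.9 to 118, 188 UMIs) in FAP-like and 177 CPM (145 to 214, 107 UMIs) in tenocyte or fibroblast-like cells, but 1 FAP-like cell held 123 of the 188 UMIs.

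The share of FAP-like cells with an Inhba UMI was 13.8% in the SD rat, 8.21% in the chimera rat cells and 27.4% in the chimera mouse cells, at median depths of 10887, 10618 and 14585 UMIs. Thinned to 1000 UMIs, the shares were 2.51%, 1.04% and 4.92%. In thinned B cell-like cells, which should lack the gene and whose median depths were 3580, 4268 and 5574 UMIs before thinning, no rat cell had a UMI, of 67 cells in the SD rat and 389 in the chimera, which allows shares of up to 4.48% and 0.771%. The SD rat limit is above the thinned FAP-like share of 2.51%, so it cannot set that share apart from background. Before thinning, B cell-like cells had 3 Inhba UMIs in the SD rat (4.17% of cells) and 1 in the chimera rat cells (0.257%). The level was lower in chimera rat cells in each kind of FAP-like cluster. A cluster is called led by a gene that was among its leading genes, not always the first. The Sfrp4-led kind joined 2 SD rat clusters, of 1022 cells and of 548 cells with Prg4 and Myoc first, beside 1 chimera rat cluster of 962 cells. The Smoc2-led kind was 1 SD rat cluster and 2 chimera rat clusters. The kinds are thus not matched clusters. Clusters led by Apod had 90.9 and 46.2 CPM in the SD rat and chimera rat cells, with a log2 ratio of -0.96, those led by Sfrp4 29.6 and 12.6 CPM (-1.17), those led by Smoc2 25.4 and 8.95 CPM (-1.41), and those led by Mfap5 17.3 and 5.999 CPM (-1.39). All 4 intervals lay below 0 (for the Apod-led clusters -1.41 to -0.55).

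The Inhba difference in FAP-like cells moved with the share of a cell's UMIs that lay on mouse rows. Among chimera rat cells this share had a median of 11.2%. The 502 FAP-like chimera rat cells with at most 10% had 20.7 CPM (17.4 to 24.5) and a log2 ratio to the SD rat of -0.47 (-0.75 to -0.23), while the 2104 cells with more had 9.12 CPM (7.91 to 10.47) and -1.57 (-1.89 to -1.45). When the limit for a rat cell was set to 10% and the 2872 cells left were clustered anew, 555 were FAP-like and the direction turned, with a log2 ratio of 0.42 (0.23 to 0.62). Of the 273 Inhba UMIs of those FAP-like cells, 136 were in 1 cell. Without the cell with the most Inhba UMIs in each library, the ratio at that limit was -0.45 (-0.75 to -0.21), close to the value of the 502 cells. At the 10% limit the Inhba difference was thus within 2-fold, and its direction turned only with that cell. In tenocyte or fibroblast-like cells the log2 ratio at the 10% limit was -0.21 (-0.71 to 0.26), an interval that held 0.

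In other classes some Inhba values rested on few cells. The cycling MP-like class, 112 SD rat and 108 chimera rat cells, mixed cells with and without FAP markers. In the SD rat 54 of its cells had a UMI of a myogenic factor (Pax7, Myf5, Myod1 or Myog) and none of Pdgfra, a receptor that marks FAPs, while 20 had Pdgfra and no myogenic factor and 10 had both. Among the chimera rat cells these were 41, 32 and 6 cells. Inhba in the whole class had 24.5 CPM (17.7 to 33.2, 42 UMIs) in the SD rat and 85.4 CPM (71.9 to 101, 141 UMIs) in the chimera rat cells, with a log2 ratio of 1.76 (1.29 to 2.33). Of those 141 UMIs, 136 were in 1 cell, the same cell as above, which had UMIs of 7 of 11 FAP markers and of 1 of 10 MP markers. It fell in an MP-like cluster in 6 of 11 clusterings and in a FAP-like cluster in 5. Leaving out the cell with the most Inhba UMIs in each library turned the ratio to -2.16. The cells with a myogenic factor and without Pdgfra had 0 Inhba UMIs in both libraries. In EC-like cells the cluster led by Selp, a gene of venous endothelium, had 40.5 CPM (17 UMIs) and 36.6 CPM (30 UMIs), and the other EC-like cells 1.69 and 1.01 CPM. Myeloid-like cells had 3.61 CPM (2.02 to 5.95) in the SD rat, 4.26 (2.97 to 5.92) in the chimera rat cells and 29.5 (22.7 to 37.8, 63 UMIs) in the chimera mouse cells, whose interval lay above both others, and 29 of the 63 UMIs were in 1 cell. The class differed in makeup, with 360 macrophage-like and 150 neutrophil or monocyte-like cells in the SD rat, 617 and 404 among the chimera rat cells, and neutrophil or monocyte-like cells alone (149) among the mouse cells, so the mouse value is not of like cells.

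Bmp4 (ENSRNOG00000009694), a bone morphogenetic protein, was highest in EC-like cells of both rat populations. The level there was 249 CPM (235 to 264, 1135 UMIs) in the SD rat and 360.2 CPM (341 to 379.8, 1367 UMIs) in the chimera rat cells, with a log2 ratio of 0.53 (0.42 to 0.65). The mouse EC-like cells had 39.2 CPM (34.5 to 44.5, 245 UMIs). The interval of the mouse cells lay far below both rat intervals. The comparison of mouse and rat cells is between the mouse and the rat row of the gene, so a difference in how well each row captures its transcript cannot be told apart from a difference in level. The share of EC-like cells with a Bmp4 UMI followed the same order, with 24.6%, 41.4% and 12.1% at median depths of 1854, 3431 and 5184 UMIs, and 15.1%, 20.8% and 1.99% after thinning to 1000 UMIs. Thinning left out cells with fewer than 1000 UMIs. In the SD rat 1 EC-like cluster of 422 cells had a median of 694 UMIs, so the thinned shares are not of the same cells. B cell-like cells, which should lack the gene, had 0, 2 and 0 Bmp4 UMIs.

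Among EC-like clusters, those led by Selp had the highest Bmp4 level in each population. They had 749.9 CPM (669 to 837, 58 cells) in the SD rat and 705 CPM (648 to 765, 70 cells) in the chimera rat cells, with overlapping intervals, and the other EC-like cells 198 CPM (185 to 212) and 265 CPM (247 to 285), which did not overlap. In mouse cells the cluster led by Selp and Sele had 91.3 CPM. The 70 Selp-led cells were among 720 EC-like chimera rat cells and the 58 among 1561 SD rat cells, so the 2 libraries differed in the makeup of the class. The log2 ratio without the Selp-led cells was 0.42. Among the 50 EC-like chimera rat cells with at most 10% of UMIs on mouse rows, Selp-led cells included, it was 0.48 (0.28 to 0.67). That value came from 266 Bmp4 UMIs, 68 of them in 1 cell. Among the 670 cells with more it was 0.54 (0.42 to 0.67). When the cells left at the 10% limit were clustered anew, the ratio of the EC-like class was -0.15 (-0.34 to 0.04).

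Bmp4 was also found in FAP-like cells at 42.5 CPM (40.4 to 44.6), 45.8 CPM (43.4 to 48.4) and 56.9 CPM (46.6 to 68.9) in SD rat, chimera rat and chimera mouse cells. The intervals of the 2 rat populations overlapped, and their log2 ratio was 0.11 (0.00 to 0.22). Tenocyte or fibroblast-like cells had 41.2 CPM (35.4 to 47.7), 57.3 CPM (50.9 to 64.2) and 51.4 CPM (34.9 to 73.0), with a log2 ratio between the rat populations of 0.47 (0.20 to 0.75). The cluster with Emb was the higher of the 2 tenocyte clusters in each library, at 68.4 and 107 CPM. Pericyte or mural-like cells had 74.9 CPM (63.0 to 88.3) and 71.9 CPM (61.9 to 83.1). Among the chimera rat cells the mural cluster with the smooth muscle genes Tagln, Acta2 and Myh11 had 116 CPM (177 UMIs) and the pericyte cluster led by Rgs5 7.66 CPM (8 UMIs). The leading genes of that mural cluster also held the globin genes Hba-a2 and Hbb-b1 and the endothelial gene Fabp4. Those of the single SD rat cluster held the endothelial genes Flt1 and Fabp4. The part of endothelial transcripts in these Bmp4 values was not tested.

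**Figure D1:**
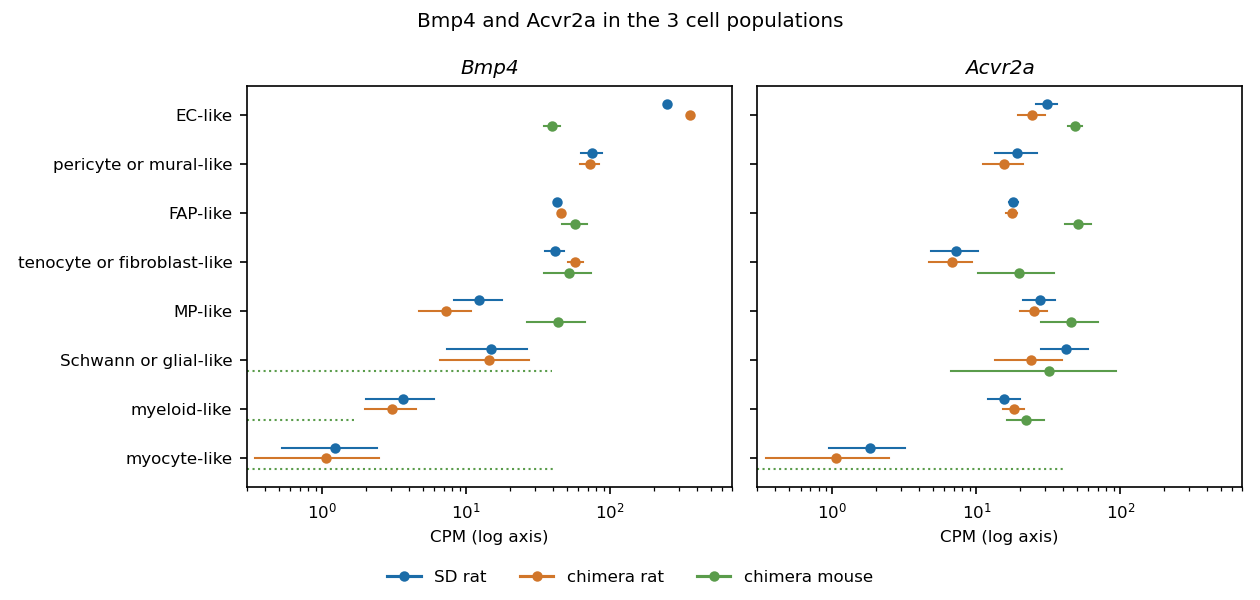
Levels of Bmp4 and Acvr2a in CPM, on a log axis, by cell class for SD rat, chimera rat and chimera mouse cells. Points are levels over the summed UMIs of a class, bars are exact 95% Poisson intervals, and a dotted line marks a class with 0 UMIs up to its upper limit: in EC-like cells the mouse cells were lowest for Bmp4 (39.2 CPM) and highest for Acvr2a (48.7 CPM).

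Of the antagonists, Fst (ENSRNOG00000011631), which encodes follistatin, came almost entirely from FAP-like cells. These held 94.3% of its UMIs in the SD rat, 92.1% in the chimera rat cells and 96.3% in the chimera mouse cells. The level was 144 CPM (139.9 to 148, 5196 UMIs) in the SD rat, 91.4 CPM (87.9 to 94.9, 2624 UMIs) in the chimera rat cells and 238 CPM (216 to 261, 439 UMIs) in the chimera mouse cells. The 3 intervals were apart. The share of FAP-like cells with a UMI was 46.2%, 39.3% and 58.9%, and 10.6%, 7.25% and 13.9% after thinning to 1000 UMIs. In myocyte-like cells Fst had 2.43 CPM (16 UMIs) in the SD rat, 0.845 CPM (4 UMIs) in the chimera rat cells and 0 UMIs in the 29 mouse cells.

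The log2 ratio of Fst between chimera rat and SD rat FAP-like cells was -0.65 (-0.72 to -0.59), and its sign depended on how UMIs on mouse rows were counted. In chimera rat FAP-like cells, 53.3% of the UMIs of the rat and mouse Fst rows together lay on the mouse row, against a median of 4.16% over all genes measured in that class. When the mouse-row UMIs were added to the rat row, the log2 ratio was 0.35 (0.30 to 0.40). Among the FAP-like cells with at most 10% of UMIs on mouse rows it was -1.24 (-1.40 to -1.10), and among those with more -0.51 (-0.59 to -0.44). Whether rat Fst transcripts were assigned to the mouse row, or mouse transcripts were present in rat barcodes, was not tested.

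Fst levels also differed between kinds of FAP-like clusters. Those led by Sfrp4 had 198 CPM in the SD rat and 128 in the chimera rat cells, those led by Mfap5 155 and 105 CPM, those led by Smoc2 71.3 and 62.0 CPM, and those led by Apod 18.3 and 3.90 CPM. The order from Sfrp4-led to Apod-led clusters was the same in both libraries, and no interval of neighbours in that order overlapped within a library. Inhba ran otherwise, with its highest FAP-like level in the Apod-led clusters, where Fst was lowest. Pericyte or mural-like cells came second for Fst with 59.0 CPM (48.5 to 71.0) and 31.5 CPM (25.01 to 39.1), a log2 ratio of -0.88 (-1.34 to -0.48). In SD rat T or NK-like cells 17 of 19 Fst UMIs were in 1 cell.

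**Figure D2:**
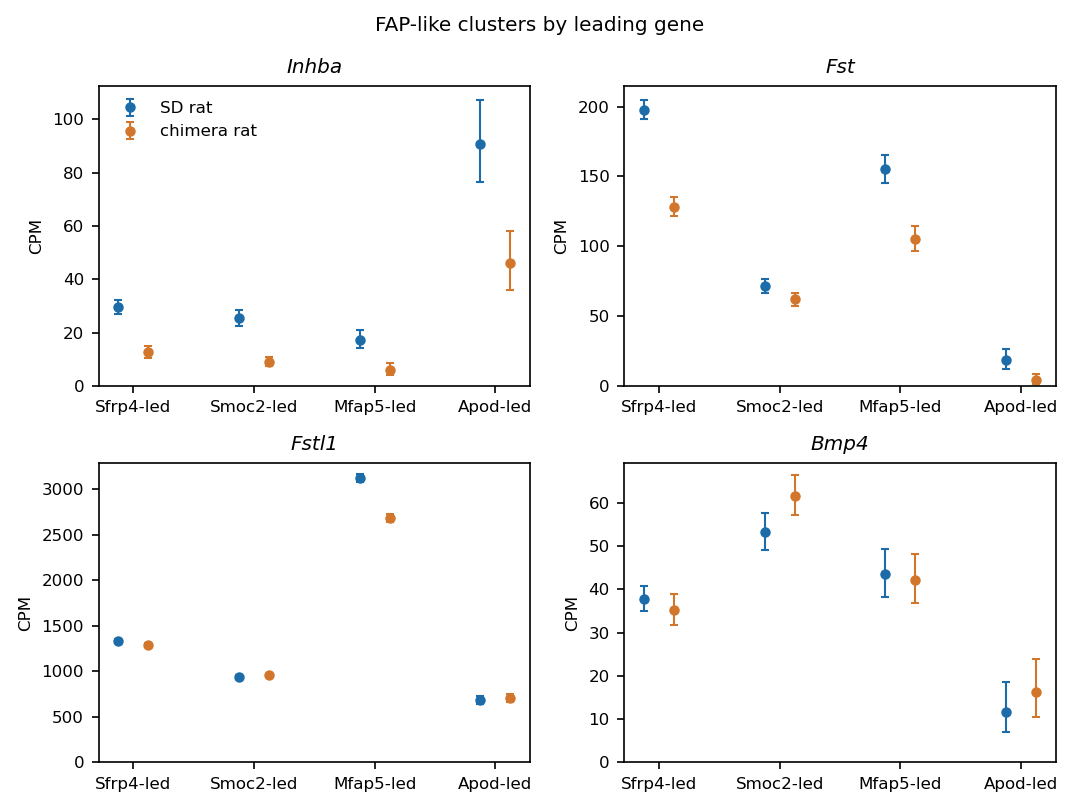
Levels of Inhba, Fst, Fstl1 and Bmp4 in CPM in FAP-like clusters led by Sfrp4, Smoc2, Mfap5 or Apod, for SD rat and chimera rat cells, with exact 95% Poisson intervals. Inhba was lower in chimera rat cells in all 4 kinds of cluster, Fst was highest in the Sfrp4-led clusters (198 and 128 CPM), and Fstl1 in the Mfap5-led clusters (3120 and 2685 CPM).

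Fstl1 (ENSRNOG00000002746), a secreted glycoprotein with a follistatin domain, marked the stroma broadly. It was found in 97.7%, 98.5% and 99.2% of FAP-like cells of the SD rat, chimera rat and chimera mouse, and in 65.3%, 64.5% and 67.2% after thinning to 1000 UMIs. The level in FAP-like cells was 1467 CPM (1454 to 1479), 1379 CPM (1366 to 1393) and 1573 CPM (1516 to 1631). The rat populations differed by a log2 ratio of -0.09 (-0.11 to -0.07), with 52991 and 39609 UMIs behind it. Mfap5-led clusters had the most, at 3120 and 2685 CPM, and Apod-led clusters the least, at 683 and 708 CPM. Cycling MP-like cells had 759.8 CPM (719 to 802) and 721 CPM (680.4 to 763), above the 217 CPM (198 to 237) and 202 CPM (187 to 218) of the MP-like cells that were not cycling. Within the cycling class, the cells with a myogenic factor and without Pdgfra had 229.7 CPM (195 to 269) and 263 CPM (219.8 to 313), and those with Pdgfra and without a myogenic factor 1364 CPM (1255 to 1480) and 1175 CPM (1091 to 1263). Myocyte-like cells had 39.4 and 39.3 CPM in the rat populations and 0 UMIs in the 29 mouse cells.

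The Fstl1 values of B cell-like, T or NK-like and mast cell-like cells moved with the summed level of FAP markers. B cell-like cells had 154 CPM (110.4 to 210.4, 40 UMIs) in the SD rat and 18.3 CPM (12.7 to 25.4, 35 UMIs) in the chimera rat cells, a log2 ratio of -3.01 (-3.78 to -2.39). T or NK-like cells had 144 CPM (117 to 175) and 22.8 CPM (19.0 to 27.2), a log2 ratio of -2.61 (-3.05 to -2.26), while mast cell-like cells had 38.9 CPM (21.8 to 64.1) and 256 CPM (201 to 321), a log2 ratio of 2.69 (1.91 to 3.63), with 46 of the 75 chimera UMIs in 1 cell. The summed level of the 11 FAP markers moved the same way. It was 2916 CPM in the SD rat and 199 CPM in the chimera rat cells for B cell-like cells (10 and 9 of 11 markers with a UMI, 0 to 428 and 0 to 11 UMIs per cell), 2672 and 262 CPM for T or NK-like cells (11 and 11 markers, 0 to 639 and 0 to 251 UMIs per cell), and 472 and 3393 CPM for mast cell-like cells (9 and 11 markers, 0 to 49 and 0 to 506 UMIs per cell). Scara5 was at 0 UMIs in B cell-like cells of both libraries and in SD rat mast cell-like cells, and Cd34 in chimera rat B cell-like and SD rat mast cell-like cells. Dpp4 went against Fstl1 in 2 classes, with 17.5 CPM in SD rat and 27.8 CPM in chimera rat T or NK-like cells and 23.3 and 3.41 CPM in mast cell-like cells. The sums leaned on Gsn and Dcn, which held 1023 and 452 of the 1836 marker UMIs of SD rat T or NK-like cells. The part of FAP transcripts in these Fstl1 values was not tested. With predicted doublets kept, the log2 ratio was -0.71 (-1.20 to -0.21) in B cell-like, -1.08 (-1.40 to -0.77) in T or NK-like and 0.04 (-0.39 to 0.45) in mast cell-like cells, so the first and the last were no longer past 2-fold.

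Fstl3 (ENSRNOG00000009311), a follistatin-like antagonist of activins and myostatin, had 247, 175 and 50 UMIs in SD rat, chimera rat and chimera mouse cells. Among classes with at least 10 UMIs it was highest in tenocyte or fibroblast-like cells, at 10.2 CPM (7.40 to 13.7), 5.98 CPM (4.06 to 8.48) and 29.8 CPM (17.7 to 47.2), and FAP-like cells had 4.76 CPM (4.08 to 5.53), 3.52 CPM (2.86 to 4.27) and 5.42 CPM (2.60 to 9.97). The mouse tenocyte interval lay above both rat intervals, while the intervals of the 2 rat populations overlapped in both classes. The log2 ratios of the rat populations were -0.68 (-1.48 to -0.07) and -0.35 (-0.81 to -0.07). Schwann or glial-like cells had 10.8 and 12.7 CPM, from 8 UMIs in each.

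Grem1 (ENSRNOG00000026053) was rare and sat in few cells. The SD rat held 94 UMIs in 29 cells and the chimera rat cells 108 in 32 cells, with 24 UMIs in the highest cell of each library and 3 cells holding at least 50% of all Grem1 UMIs in each. FAP-like cells had 77 UMIs (2.13 CPM, 1.68 to 2.66) and 90 UMIs (3.13 CPM, 2.52 to 3.85), and 76 and 89 of these were in Sfrp4-led clusters, at 4.34 CPM (3.42 to 5.43) and 8.29 CPM (6.66 to 10.2). The intervals of the Sfrp4-led clusters did not overlap, but with 3 cells holding at least 50% of the UMIs the value follows single cells. The mouse row of Grem1 had 0 UMIs in the whole chimera library, and 0 of 1847 mouse cells allows a share of up to 0.162% of cells with a UMI on that row. Mouse cells held 2 Grem1 UMIs on the rat row. Whether the mouse row captures the transcript was not tested, so this is no limit on mouse cells that express Grem1.

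Of the receptors, Acvr2a (ENSRNOG00000005334), a type II receptor for activins and myostatin, was spread over most classes. The SD rat had its highest level in Schwann or glial-like cells at 41.7 CPM (28.3 to 59.2), then in EC-like cells at 30.7 CPM (25.9 to 36.3), in T or NK-like cells at 27.7 CPM (16.6 to 43.2) and in MP-like cells at 27.6 CPM (21.2 to 35.4), and neighbours in this order overlapped. Further down, FAP-like cells had 18.1 CPM (16.7 to 19.5), tenocyte or fibroblast-like cells 7.18 CPM (4.88 to 10.2) and myocyte-like cells 1.82 CPM (0.943 to 3.19). The chimera rat cells had 23.9, 24.2, 23.0, 25.04, 17.5, 6.75 and 1.06 CPM in the same classes, and each interval overlapped that of the SD rat.

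Chimera mouse cells had more Acvr2a in some classes. In FAP-like cells the level was 51.0 CPM (41.2 to 62.3), in EC-like cells 48.7 CPM (43.4 to 54.5) and in tenocyte or fibroblast-like cells 19.9 CPM (10.3 to 34.8), and the intervals lay above those of both rat populations in these 3 classes. In MP-like cells the mouse level of 45.6 CPM (28.2 to 69.7) overlapped both rat values. Of the UMIs of the 2 Acvr2a rows in chimera rat FAP-like cells, 45.5% lay on the mouse row.

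Acvr2b (ENSRNOG00000014477), the other type II receptor, was near the limit of detection, with 90, 84 and 45 UMIs in SD rat, chimera rat and chimera mouse cells. EC-like cells had 4.61 CPM (2.85 to 7.05), 5.27 CPM (3.22 to 8.14) and 4.002 CPM (2.59 to 5.91), and FAP-like cells 0.664, 0.731 and 3.25 CPM, the last from 6 UMIs. Intervals of the 3 populations overlapped in EC-like cells. In FAP-like cells the mouse interval (1.19 to 7.08) lay above those of the SD rat (0.426 to 0.988) and of the chimera rat cells (0.453 to 1.12).

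Acvr1b (ENSRNOG00000006934) encodes the type I receptor ALK4. Pericyte or mural-like cells had the highest SD rat level at 27.1 CPM (20.2 to 35.6), beside 25.7 CPM (19.8 to 32.7) in chimera rat cells, and FAP-like cells had 21.0 CPM (19.5 to 22.6), 19.2 CPM (17.6 to 20.9) and 13.01 CPM (8.34 to 19.4). Those intervals overlapped between the rat populations, and the mouse FAP-like interval lay below that of the SD rat. EC-like cells had 11.4, 13.2 and 10.9 CPM and MP-like cells 9.21, 12.2 and 10.9 CPM, all overlapping. Myeloid-like cells had 9.86 CPM (7.08 to 13.4) in the SD rat and 14.7 CPM (12.2 to 17.6) in the chimera rat cells, a log2 ratio of 0.53 (0.06 to 1.13). Myocyte-like cells had 1.52 and 2.11 CPM from 10 UMIs each.

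Receptor transcripts were rare enough that few cells showed both parts of a receptor. At least 1 UMI of Acvr2a or Acvr2b was found in 16.4% of SD rat, 15.3% of chimera rat and 46.0% of chimera mouse FAP-like cells, and a UMI of a type II receptor together with one of Acvr1b in 4.04% (95% interval 3.38 to 4.78), 2.61% (2.03 to 3.296) and 11.3% (6.31 to 18.2). For EC-like cells the type II share was 8.52%, 12.4% and 22.9%, and for MP-like cells 14.1%, 17.1% and 23.4%. These shares were not thinned, and their order followed that of the median depths. The depths were 1854, 3431 and 5184 UMIs in EC-like cells and 5836.5, 7210.5 and 9211 in MP-like cells. The Acvr2a level of EC-like cells was not higher in the chimera rat cells (30.7 CPM in the SD rat, 24.2 CPM in chimera rat cells). The cycling MP-like class, with the mix of cells given above, had 25% (28 of 112 cells) and 30.6%, with both receptor types in 8.93% and 6.48%. The class with the fewest was myocyte-like cells, at 1.25% (SD rat) and 1.08% (chimera rat), where no cell of any population held both types. The median depth of myocyte-like cells was 3641 and 4876 UMIs, against 10887 and 10618 for FAP-like cells, so these shares also carry the depth of each class.

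Across the 10 members and 13 classes of rat cells there were 130 pairs of a member and a class, of which 48 had at least 50 UMIs summed over both libraries, from 9 members (all but Acvr2b). Of the 48, 4 were at least 2-fold lower in the chimera rat cells (8.33%), beside 3.83% of all gene and class pairs, and 2 were at least 2-fold higher (4.17%), beside 2.42% of all pairs. The median log2 ratio of the 48 was -0.08. The interval lay below 0 for 13, above 0 for 8 and held 0 for 27. In the class where the SD rat had its highest level, none of the 6 members with at least 50 summed UMIs there (Mstn, Inhba, Fst, Fstl1, Acvr1b and Bmp4) was past 2-fold, and the other 4 members had 10 to 46 UMIs there, too few for a count.

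By class, the pairs past 2-fold were few. In FAP-like cells 1 of 9 members (Inhba) was lower, where 1.54% of all genes were, and 0 were higher, where 0.933% were. For Inhba the chimera rat FAP-like cells held 115 UMIs on the mouse row beside 338 on the rat row. The mouse row thus had 25.4% of the pair's UMIs, against a median of 4.16% over all genes of the class. Such a division can lower the rat-row count, so this call carries that limit. The ratio with those UMIs added is not given here. In cycling MP-like cells 1 of 5 (Fst, 30.4 and 13.3 CPM, log2 ratio -1.13) was lower beside 2.94% of genes, and 1 of 5 (Inhba, through 1 cell) was higher beside 1.57%. With mouse-row UMIs added to the rat row, the Fst ratio in cycling MP-like cells was -0.04. Of the 52 SD rat and 22 chimera rat Fst UMIs of this class, 1 and 0 were in cells with a myogenic factor and without Pdgfra. The other 3 were Fstl1 in immune classes, lower in B cell-like cells beside 9.35% of genes, lower in T or NK-like cells beside 10.4%, and higher in mast cell-like cells beside 4.72%. No member was past 2-fold in tenocyte or fibroblast-like cells (8 members, 1.95% of genes lower and 1.42% higher), in EC-like cells (5 members, 2.99% and 3.09%) or in pericyte or mural-like cells (6 members, 3.55% and 1.63%). Mstn in tenocyte or fibroblast-like cells, at -0.96 (-1.58 to -0.51), stood just inside the 2-fold limit.

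**Figure D3:**
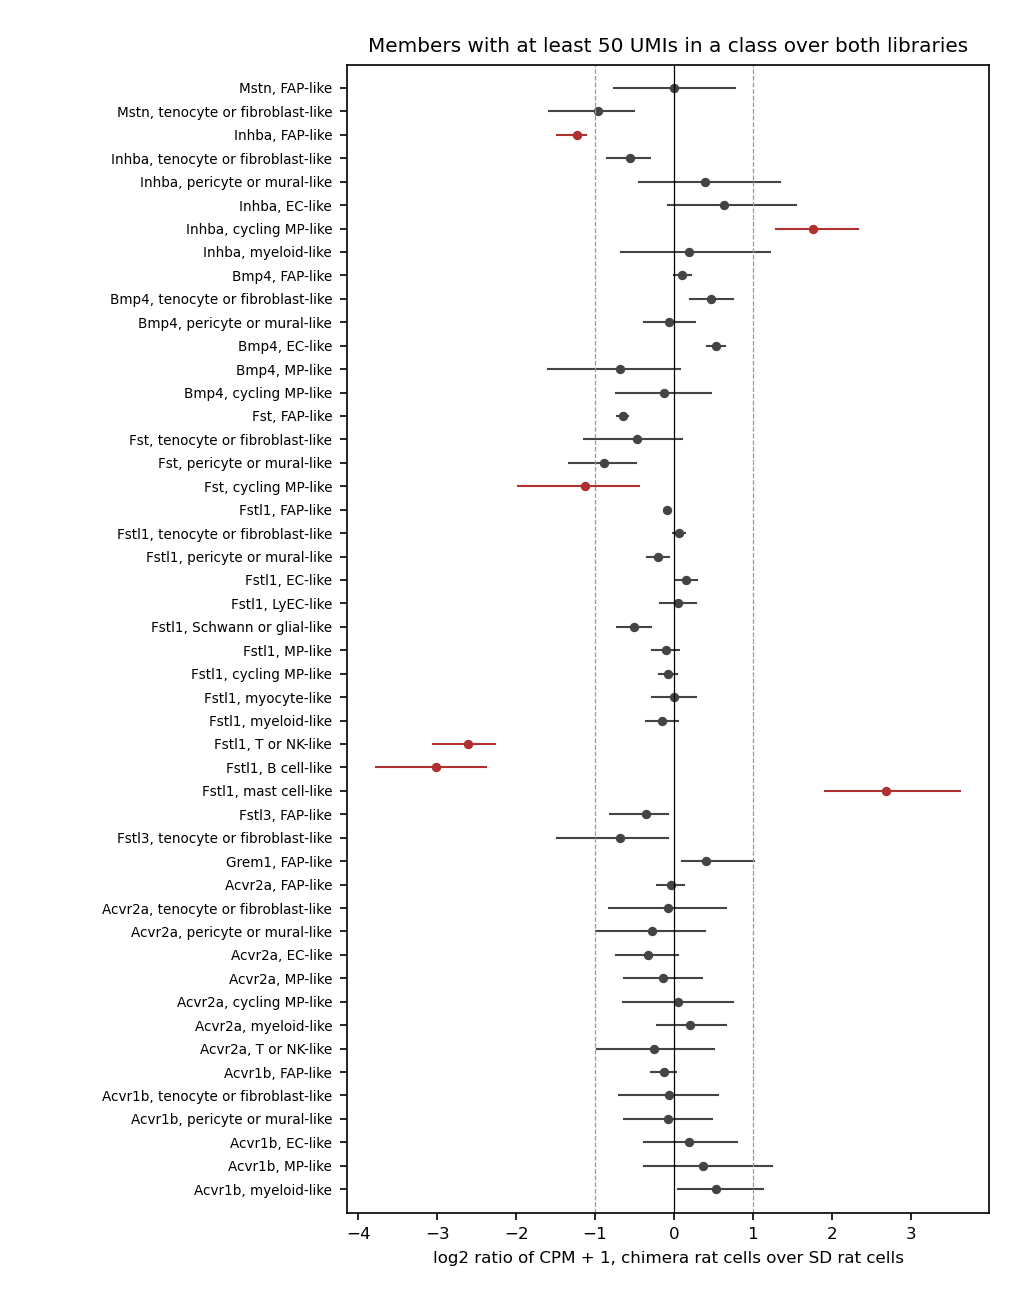
The log2 ratio of chimera rat over SD rat cells for the 48 pairs of a member and a class with at least 50 summed UMIs, with intervals from the exact binomial distribution of the summed counts, and in red the pairs past 2-fold. The 6 red pairs are Inhba in FAP-like and cycling MP-like cells, Fst in cycling MP-like cells and Fstl1 in B cell-like, T or NK-like and mast cell-like cells.

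The class with the highest level was the same in SD rat and chimera rat cells for 6 of 10 members (Mstn, Fst, Fstl1, Fstl3, Acvr1b and Bmp4) and in SD rat and chimera mouse cells for 3 (Inhba, Fst and Fstl1). For Inhba the chimera rat order was set by the single cell of 136 UMIs, whose class changed with the clustering, and for Grem1 by 1 UMI in mast cell-like cells. The mouse cells formed no LyEC-like (lymphatic endothelial), pericyte or mural-like or mast cell-like class, so the order there runs over fewer classes.

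Chimera reads were aligned to rat and mouse genes together, and the members differed widely in how the UMIs of rat barcodes were divided between their rows. In chimera rat cells the share of a pair's UMIs on the mouse row was 53.0% for Fst, 35.9% for Acvr2a, 21.8% for Inhba and 20.2% for Bmp4. It was 14.3% for Acvr2b, 2.29% for Mstn, 1.80% for Acvr1b, 1.69% for Fstl3, 1.18% for Fstl1 and 0% for Grem1. In chimera mouse cells at most 5.47% (Acvr1b) of a pair's UMIs lay on the rat row for any member other than Grem1, which had only 2 UMIs there, both on the rat row. The SD rat table has no mouse rows, so such a division can lower rat-row counts in the chimera only, and the 4 members over 20% carry this limit in every comparison of the 2 rat populations.

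**Figure D4:**
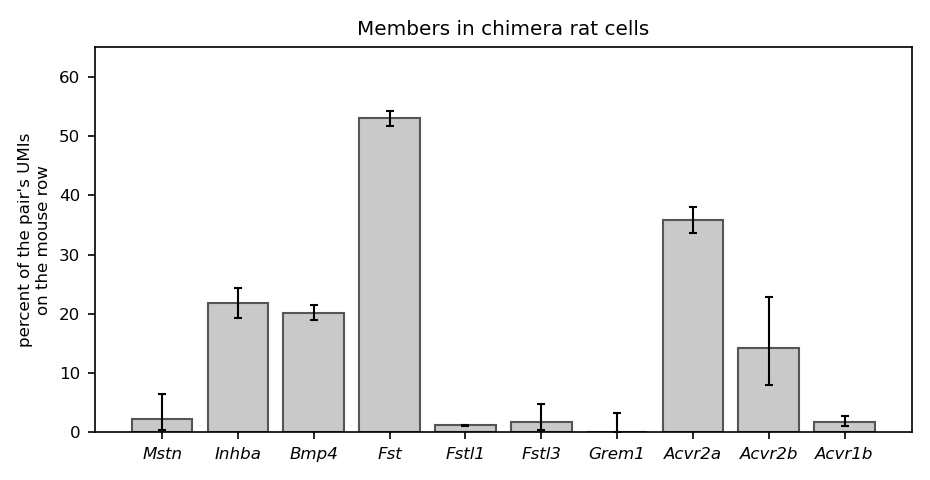
Share of the UMIs of each member's rat and mouse rows together that lay on the mouse row in chimera rat cells, in percent, with exact 95% binomial intervals. Fst (53.0%), Acvr2a (35.9%), Inhba (21.8%) and Bmp4 (20.2%) were above 20%, and Grem1 was at 0%.

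Beside the members, 60 other genes of the activin, myostatin and BMP pathways (ligands, receptors, antagonists, Smad proteins, latency and processing proteins and targets) were read in the 5 classes with the most member UMIs. In FAP-like cells 0 of 47 measured genes were at least 2-fold lower, beside 1.54% of all genes, and 1 was higher, beside 0.933%. Their median log2 ratio was -0.13 beside 0.07 over all genes. The 1 gene was Bmp5, a BMP ligand, at 36.2 CPM in SD rat and 100.4 CPM in chimera rat cells, a log2 ratio of 1.45 (1.38 to 1.57). In tenocyte or fibroblast-like cells 0 of 39 were lower, beside 1.95% of all genes, and 0 higher, beside 1.42% (median -0.14 beside -0.02). In EC-like cells 2 of 35 were lower, beside 2.99% of all genes, and 0 higher, beside 3.09% (median -0.24 beside 0.01). The 2 were Ltbp3, a latent TGF-beta binding protein, at 14.3 CPM in SD rat and 5.80 CPM in chimera rat cells, and Acvr1, the type I receptor ALK2, at 57.1 and 27.9 CPM. In these chimera rat cells 26.7% (Ltbp3) and 23.2% (Acvr1) of the UMIs of both rows lay on the mouse row, beside a median of 4.40% over all genes. Both ratios thus carry the limit given above for members with divided UMIs.

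In cycling MP-like cells 1 of 34 pathway genes was lower, beside 2.94% of all genes, and 1 higher, beside 1.57% (median -0.10 beside 0.03). These were Pcsk6, a proprotein convertase, at 60.2 CPM in SD rat and 19.4 CPM in chimera rat cells, and Bmp5 at 15.8 and 53.3 CPM, in a class that also held cells with FAP markers. Pericyte or mural-like cells had the most, with 4 of 39 lower, beside 3.55% of all genes, and 1 higher, beside 1.63% (median -0.29 beside -0.07). Tll1 and Bmp1, proteases of one family that can cleave the myostatin propeptide and the BMP antagonist chordin, had 51.0 and 46.2 CPM in the SD rat and 9.33 and 20.6 CPM in the chimera rat cells. Pcsk6 had 23.9 and 7.39 CPM and Htra1, a secreted serine protease, 171 and 84.4 CPM, while Bmpr1b, a type I BMP receptor, was higher in chimera rat cells, at 14.3 and 31.5 CPM. The share of a gene's UMIs on the mouse row in these chimera rat cells was 14.3% for Tll1, 20.9% for Bmp1 and 24% for Pcsk6. It was 0.459% for Htra1 and 2.41% for Bmpr1b, beside a median of 4.07% over all genes. The pericyte or mural-like class held a separate cluster of smooth muscle type in the chimera rat cells and a single cluster in the SD rat, and the part of this difference in makeup in these values was not tested.

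For the 8 members with at least 100 UMIs in the SD rat (all but Grem1 and Acvr2b), the genes with the most similar pattern over the 13 SD rat classes were looked up among 12109 genes by Pearson's r of log2(CPM + 1). Classes share a library and differ in depth, and the values are descriptions. Inhba was most like Rcn3 (r = 0.9499 over SD rat classes and 0.801 over chimera rat classes), Bgn (0.939 and 0.860) and Ppic (0.934 and 0.809). Fst was most like the collagen gene Col3a1 (0.911 and 0.806), Islr (0.911 and 0.752) and Cercam (0.903 and 0.769). Fstl1 was most like Map7d2 (0.971 and 0.797), Cebpd (0.956 and 0.973) and Col5a2 (0.955 and 0.964), and Bmp4 most like Snai1 (0.933 and 0.922), Col17a1 (0.932 and 0.745) and Mcc (0.9297 and 0.894). The receptor Acvr2a was closest to Fyn (0.939 and 0.982), Orc4 (0.937 and 0.918) and ENSRNOG00000070285 (0.933 and 0.795), and Acvr1b to Atp2b4 (0.894 and 0.850), Ptpra (0.892 and 0.731) and Jazf1 (0.889 and 0.584). The genes nearest to Mstn, which were Gsta4 (0.873 and 0.517), Trpm3 (0.860 and 0.443) and Misp3 (0.859 and 0.557), and those nearest to Fstl3, Sh2d4a (0.963 and 0.317), Lrp3 (0.954 and 0.640) and Pcdhac2 (0.947 and 0.721), were less alike over the chimera rat classes.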

How the data were processed

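Whole UMI counts were deposited for each gene in each barcode, without normalization. The submitters' processing notes name Cell Ranger 7.1.0 and the builds GRCm39 and mRatBN7.2. The chimera table holds 23373 rat rows and 25906 mouse rows and the SD rat table the rat rows alone. Filters applied by the authors after counting are not given in the sources used here, and no barcode had under 500 UMIs. No gene sequence or coordinate was used. The chimera held 13299 barcodes and 118872850 UMIs, and the SD rat 10117 barcodes and 70957559 UMIs.

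Barcodes were kept with at least 500 UMIs, 200 genes and at most 20% of UMIs on mitochondrial genes, which left 12174 and 8980. Scrublet, within Scanpy 1.11.5, at an expected rate of 8%, marked 444 and 222 doublets, which were removed. The 1653 chimera barcodes with between 20% and 80% of UMIs on mouse rows entered no class. Each population was clustered on its own species' rows, without the members and pathway genes, on 2000 variable genes, 30 components and 15 neighbours, using leidenalg 0.10.2 and a resolution of 1. Names came from marker lists, and some clusters stayed unnamed. In the rat these were led by MHC class II genes without a marker of their best class (98 SD rat and 216 chimera rat cells). In the mouse their leading genes held more markers of another class than of the best one (138 cells). Of these, 1 cluster of 106 cells had 11 EC markers raised and globin genes leading. It was left out of the mouse EC-like class. Classes with fewer than 20 cells were left out. Ratios were computed for genes with at least 50 summed UMIs, with 1 CPM added to each level, and 2-fold was the limit for a count. Since each group was 1 library, no test across samples was made. Shares of cells were repeated after thinning to 1000 UMIs per cell, without shallower cells. A share at 0 allows up to 3 counts, and a level at 0 has the upper limit of its exact Poisson interval. The code was tested on simulated data with known fold changes. It used Python 3.11.15, numpy 2.4.6, scipy 1.17.1, pandas 2.3.3 and scikit-learn 1.9.0.

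All 10 members are named in the text. Pathway genes were named where past 2-fold in the 5 classes with the most member UMIs, at most 5 per direction, and like genes by the highest correlation over SD rat classes, up to 3 per member. The members and lists were chosen with earlier results of these data known. Alternatives changed the doublet, UMI, mitochondrial and species limits, the clustering, the CPM total, the pseudocount and the minimum of summed UMIs.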

Additional observations from a re-analysis of the deposited data

Results flagged for a closer look

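The 1653 chimera barcodes with between 20% and 80% of their UMIs on mouse rows, with a median of 4644 UMIs, entered none of the comparisons. Members had UMIs there above the 3 counts that a count of 0 allows, which is what singled them out. For Mstn there were 10 UMIs on the rat row and 19 on the mouse row, for Inhba 46 and 34, and for Bmp4 304 and 203. The antagonists had 126 and 227 for Fst, 2544 and 643 for Fstl1, 9 and 17 for Fstl3, and 4 on the rat row of Grem1. The receptors had 134 and 217 for Acvr2a, 13 and 11 for Acvr2b, and 102 and 37 for Acvr1b. Mixed barcodes can hold cells of both species, and their members' values were not assigned to a cell class.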

How the results depend on the processing

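No paired analysis was possible because each group was 1 library. In the class where the SD rat level was highest, 0 members were past 2-fold lower. This became 2 (Mstn and Fst) when rat cells were limited to 10% and mouse cells to 90% of UMIs on mouse rows, 1 (Mstn) when each barcode was given to its majority species, 1 (Mstn) when mouse-row UMIs were added to the rat row, and 2 (Mstn and, from 8 UMIs, Acvr2b) when the cell with the most UMIs was left out. That last alternative was chosen after seeing the data, as were its use at the 10% limit, the split of cells at 10% mouse-row UMIs, the split of cycling cells by markers and the subgroups of clusters. No member was past 2-fold higher there under any setting. The 4 pairs of a member and a class that were lower ranged from 2 (with 15 components, and with a pseudocount of 10 CPM) to 6 (at the 10% limit, at resolution 2 and at a mitochondrial limit of 10%). The 2 that were higher became 4 with doublets kept, 1 by majority species, 1 at resolution 2, 1 with 15 components and 0 without the top cell. The share of all gene and class pairs past 2-fold under each alternative is not given here. These counts of members and pairs therefore have no background beside them and are descriptions only. Over all 13 classes, pathway pairs numbered 24 lower and 6 higher of 358 (beside 3.83% and 2.42% of all pairs), then 37 and 18 of 440 with a minimum of 20 UMIs and 2 and 1 of 193 with a minimum of 200. The share of all pairs at those other minimums is not given here. The Inhba ratio in FAP-like cells turned to 0.42 at the 10% limit with the cells clustered anew (-0.45 without the top cell), and in cycling MP-like cells to -4.67 at resolution 2, where the cell of 136 UMIs was in a FAP-like cluster, and to -2.16 without the top cell. Keeping doublets moved Fstl1 to -0.71 in B cell-like, -1.08 in T or NK-like and 0.04 in mast cell-like cells. Clustering the rat cells of both libraries together moved it to -1.19 in B cell-like and -1.54 in T or NK-like cells. Of 236 values of 16 such pairs under the alternatives, 196 lay within the counting interval of the value reported and 15 had the opposite sign, among them Fst in FAP-like cells at 0.35 with mouse-row UMIs added and Bmp4 in EC-like cells at -0.15 at the 10% limit with the cells clustered anew. The causes were not tested. Acvr2b had at most 90 UMIs in a population.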
